A study of Mus musculus with 6 samples.

Results

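The genes described here are 38 genes of the ATF4 arm of the integrated stress response and of the unfolded protein response (UPR), of 16978 genes in the deposited table. They were found by gene symbol, and they had been chosen from the measured levels of these 6 libraries, so their values below are a description and not a test of the group. All 38 were in the table and all 38 passed the minimum of 15 counts over the 6 libraries. By known role they were 11 regulators and feedback genes, 7 enzymes of amino acid and one-carbon synthesis, 8 aminoacyl-tRNA synthetases, and 12 genes of the UPR of the endoplasmic reticulum (ER). The cells were bone marrow-derived macrophages (BMDM) from the femur of wild type C57BL/6 mice, grown in 25 ng/ml M-CSF, the growth factor that drives marrow cells to become macrophages, and collected on day 7. The treated cultures received 200 ng/ml IL17B, a cytokine of the IL17 family, for 6 hours (3 libraries). The controls received PBS (3 libraries), and both treatments shared the wild type background and M-CSF. The comparison asked what IL17B does to gene expression in BMDM. The sources used here do not say if replicate libraries stand for different mice or culture dishes. The p-values therefore rest on the spread among these libraries alone, and that spread may be technical.

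ATF4 is a transcription factor whose translation rises when eIF2alpha is phosphorylated, which happens when amino acids run short, when unfolded proteins load the ER, or when double-stranded RNA or lack of heme is sensed. It turns on genes for amino acid synthesis, amino acid uptake, tRNA charging and one-carbon metabolism, and it also turns on its own brakes. The UPR has further arms, run by ATF6 and by IRE1 (Ern1) with XBP1, which raise chaperones, disulfide isomerases and degradation factors of the ER. In macrophages this system supports the making of secreted and surface proteins. Since ATF4 is controlled mostly at translation, the activity of the pathway is read from its target transcripts more than from the Atf4 transcript.

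Promoter sequence was available for 32 of the 38 members. The windows were the 250 bases before each RefSeq start (build GRCm38.p6). The C/EBP-ATF response element (CARE), the site that ATF4 binds together with a C/EBP partner, was searched as TGATGNAA on both strands. It was present in 7 of the 32 members (Aars, Asns, Chac1, Gars, Herpud1, Nupr1 and Tars), and in 3.91% of 27025 genes. The ER stress response element (ERSE), the site of ATF6 with NF-Y, was searched as CCAAT, 9 bases of any kind and CCACG on both strands. It was present in 2 members (Calr and Creld2), and in 0.13% of all genes. The XBP1 core TGACGTGG was in none of the 32 windows and in 0.603% of all genes. These motifs do not overlap each other in the sequences shown. The stretches below are shown because they place the letters of the 2 arms in the members whose levels are given in full. Each is printed 5′ to 3′ on the strand of its gene, with the motif in capitals, and where the motif lies on the other strand the capitals are its reverse complement. The Asns stretch is chr6:7693210-7693252, Nupr1 is chr7:126625553-126625600, Aars is chr8:111033710-111033757, Calr is chr8:84847055-84847113 and Creld2 is chr15:88819500-88819558. The Aars window lies before a start inside the annotated span of the gene, which begins at 111027778 on chromosome 8.
Asns: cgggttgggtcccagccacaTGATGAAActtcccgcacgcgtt
Nupr1: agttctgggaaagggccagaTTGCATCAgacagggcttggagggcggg
Aars: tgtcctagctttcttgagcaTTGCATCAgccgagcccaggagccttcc
Calr: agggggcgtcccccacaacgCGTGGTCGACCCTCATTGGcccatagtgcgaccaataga
Creld2: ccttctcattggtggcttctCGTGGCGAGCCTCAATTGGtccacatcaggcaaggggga
A match is a description of letters, not of binding. Of the 7 members with a CARE, 5 had their highest library in control replicate 2, and so did the 2 members with an ERSE. That library was also the highest for 25 (69.4%) of the 36 members ranked below, and for 19.5% of all genes. It was the highest for 11 of the 12 UPR genes, Calr and Creld2 among them. Chac1 is among the 5, though its mean level was too low for it to be among the 36. A link between motif and level was not tested.

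The depth was even. Totals lay between 20271450 and 20653371 estimated counts. Each pair of libraries differed by more than counting noise, with a mean variance of 4.32 to 10.7 times that of counting alone. The largest of these, 10.7, 10.2, 9.39 and 9.15, were pairs of control replicate 2 with control replicate 3, IL17B replicates 3 and 2, and control replicate 1. By the median over genes the largest ratio, 3.78, was between IL17B replicate 1 and control replicate 1. Macrophage markers (Csf1r, Lyz2 and 6 others) were high in all libraries and summed to 28603 to 30264 CPM (counts scaled by TMM to a common depth) with IL17B and 27913 to 29426 CPM in controls. Markers of other cells differed between libraries. The 8 hepatocyte markers summed to 0.343, 196 and 68.9 CPM with IL17B, against 0.146, 0.485 and 0.490 CPM in controls. The 6 fibroblast and stroma markers summed to 32.9, 36.1 and 33.4 CPM with IL17B, against 41.4, 56.1 and 38.2 CPM in controls. Control replicate 2 was the highest library for 5 of the 6, and for 4 of the 4 with a mean of at least 1 CPM. Of all genes with such a mean, 19.5% were highest there. The 6 Schwann cell and nerve markers summed to 7.06, 2.003 and 2.24 CPM with IL17B, against 8.46, 5.19 and 6.17 CPM in controls. The part of these cells in the values of the members was not tested. In bulk RNA, fewer cells of a type and less RNA per cell cannot be told apart.

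Control replicate 2 stood apart for these genes, and it was also in the pairs of libraries with the largest mean variance over the whole table. Of the 36 members with a mean of at least 1 CPM, 25 (69.4%) had their highest level in that library, whereas 19.5% of 11466 genes with such a mean did. No member was lowest there, whereas 19.2% of all genes were. The count ran through the roles unevenly, with 11 of 12 UPR genes, 7 of 8 synthetases, 5 of 10 regulators and 2 of 6 synthesis enzymes highest in control replicate 2. On the deposited TPM values, which scale counts by transcript length and depth, the share was 75.0% of members and 24.3% of all genes. The lowest library was IL17B replicate 1 for 13 of the 36 members (36.1%, against 17.3% of all genes) and IL17B replicate 2 for 12 (33.3%, against 16.3%). IL17B replicate 3 was lowest for 1 (2.78%, against 13.7%). Control replicate 3 was lowest for 6 (16.7%, against 13.3%) and control replicate 1 for 4 (11.1%, against 20.1%). Control replicate 2 also had the highest sum of stroma markers (56.1 CPM) and the lowest sum of macrophage markers (27913 CPM). Most of the macrophage sum was Lyz2 (mean 18441 CPM). Lyz2, Itgam and Cd14 were lowest in that library, whereas 1 of the 8 macrophage markers, Adgre1, was highest there, and the others were neither. The part of stroma cells and macrophages in this pattern was not tested. The medians, the role sums and the fold changes of the members below are therefore also given without control replicate 2.

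**Figure D1:**
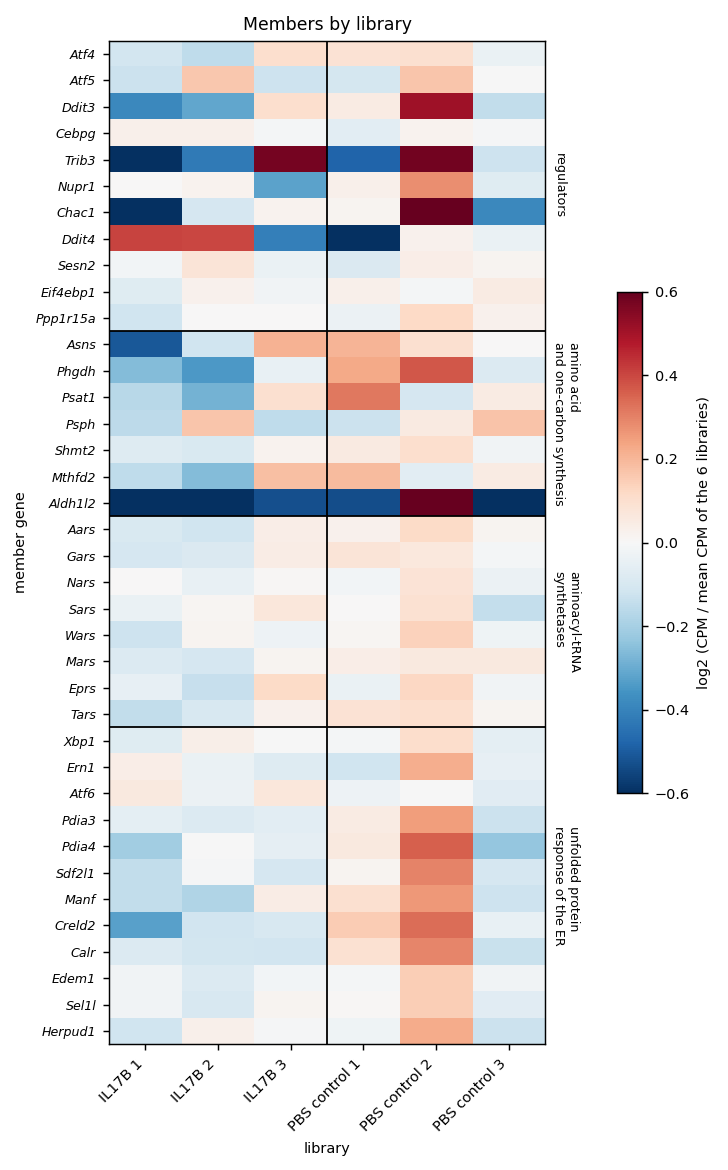
Level of each of the 38 members (rows, grouped by role) in each of the 6 libraries (columns, IL17B left of PBS control), as log2 of the CPM over the mean CPM of the 6 libraries, with the colour scale ending at -0.6 and 0.6. Control replicate 2 is the highest library for 25 of the 36 members with a mean of at least 1 CPM and is the lowest for none of them.

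**Figure D2:**
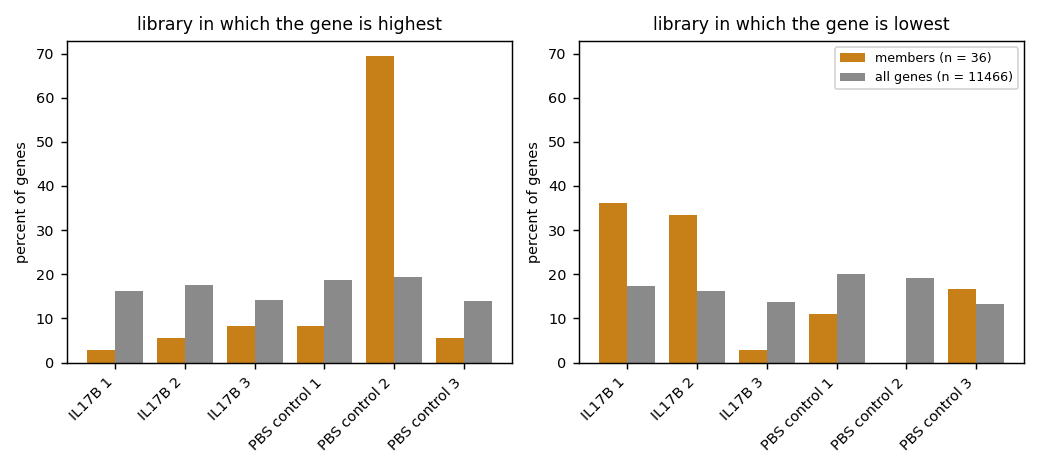
Percent of genes with a mean of at least 1 CPM that have their highest (left) or lowest (right) level in each library, for 36 members and 11466 genes in all, IL17B left of PBS control. Control replicate 2 is highest for 69.4% of members and 19.5% of all genes, and lowest for 0.0% of members and 19.2% of all genes.

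Between IL17B and control, the members were slightly lower with IL17B as a median, and none was called. Of the 38 members, 33 had a negative and 5 a positive log2 fold change (IL17B over control). Over all genes tested, 6916 were negative and 6950 positive. The median of the members was -0.10, against 0.00 over all 13866 genes tested. Without control replicate 2 it was -0.05, with 26 members negative and 12 positive. By edgeR's quasi-likelihood test with Benjamini-Hochberg adjustment over 13866 genes, 0 members and 0 genes (0.0%) were called at an adjusted p of 0.05. Adjusted p-values of the members lay between 0.862 and 0.998. At an unadjusted p under 0.05 there were 726 of 13866 genes and 3 of 38 members (Creld2, Phgdh and Tars, all lower with IL17B). DESeq2 called 6 genes and 0 members. In CPM, the 3 IL17B libraries lay below all 3 control libraries without overlap for 2 of 38 members (Creld2 and Mars), where 4.77% of all genes did so. They lay above without overlap for 0 members and for 5.16% of all genes. In TPM it was Creld2 and Eif4ebp1 that did not overlap, both lower with IL17B, and Mars did. The share of all genes without overlap in TPM is not given here, so no background stands beside these members.

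**Figure D3:**
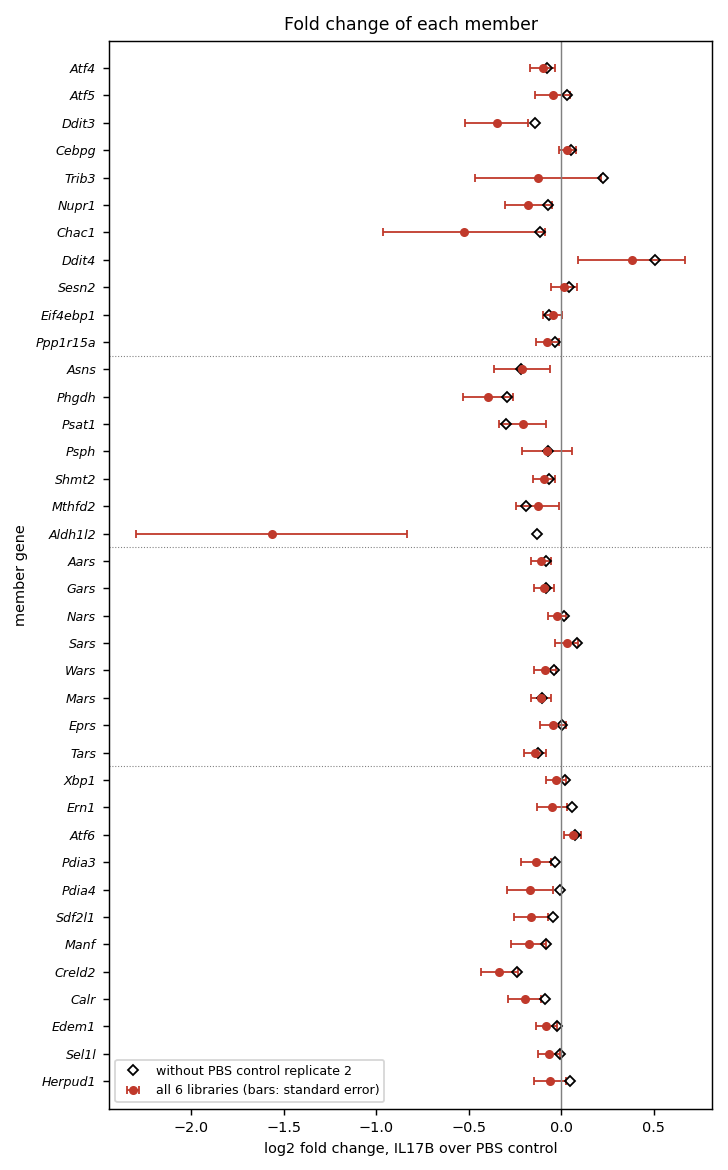
Log2 fold change of each member, IL17B over PBS control, from the edgeR fit of all 6 libraries (filled points, bars show the standard error) and of the 5 libraries without PBS control replicate 2 (open diamonds). The median over the 38 members is -0.10 with all libraries and -0.05 without that library, and Aldh1l2 moves the most, to -0.13 with 5 libraries.

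Summed over a role, the levels showed where control replicate 2 rose above the rest. The 12 UPR genes summed to 2041, 1961 and 2029 TPM with IL17B, against 2165, 2560 and 1950 TPM in controls. The regulators summed to 393, 391 and 422 TPM with IL17B, against 415, 469 and 409 TPM in controls. The synthetases summed to 419, 403 and 443 TPM with IL17B, against 426, 464 and 421 TPM in controls. In these 3 roles control replicate 2 had the highest sum and the IL17B libraries overlapped the other controls. Synthesis enzymes differed from this, with 82.7, 81.5 and 99.0 TPM with IL17B, against 100.8, 99.1 and 93.7 TPM in controls. There IL17B replicates 1 and 2 were the low libraries and IL17B replicate 3 lay within the controls. The ratio of the mean sums (IL17B over control) was 0.903 for UPR genes, 0.932 for regulators, 0.964 for synthetases and 0.896 for synthesis enzymes. Without control replicate 2 it was 0.977, 0.975, 0.995 and 0.902 in the same order of roles.

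**Figure D4:**
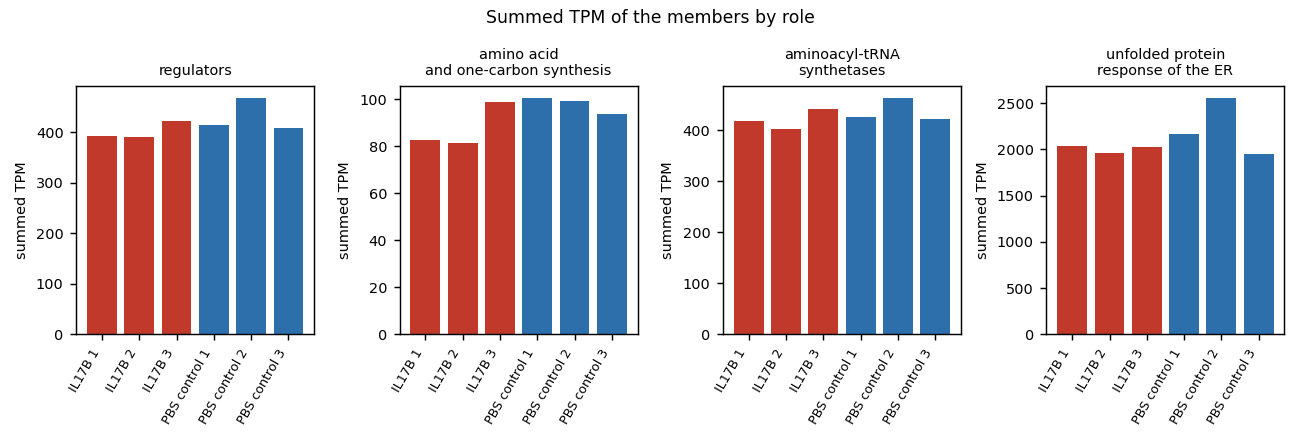
Summed TPM of the members of each role in each library, IL17B (red) left of PBS control (blue), on axes that start at 0. The UPR sum is 2560 TPM in PBS control replicate 2 and between 1950 and 2165 TPM in the other libraries, and the synthesis sum is lowest in IL17B replicates 1 and 2.

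The regulators had a median log2 fold change of -0.07, and -0.03 without control replicate 2. Atf4 itself, on chromosome 15, had 1904, 1854 and 2216 counts (129, 118 and 147 TPM) with IL17B, against 2201, 2222 and 2003 counts (142, 147 and 131 TPM) in controls. It was the most abundant regulator per length, and its groups overlapped (log2 fold change -0.10, SE 0.07, and -0.08 without control replicate 2). Eif4ebp1, which holds back cap-dependent translation, was nearly flat, with 771, 828 and 804 counts (83.2, 85.5 and 85.2 TPM) with IL17B, against 837, 813 and 840 counts (86.4, 86.5 and 88.6 TPM) in controls. Its log2 fold change was -0.05 (SE 0.05), and -0.06 without control replicate 2.

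Ddit3 encodes CHOP, the transcription factor that follows ATF4 in prolonged ER stress. It had 330.16, 347.58 and 463.64 counts (33.2, 31.7 and 44.9 TPM) with IL17B, against 450, 618.6 and 388.71 counts (44.3, 63.7 and 39.0 TPM) in controls. Control replicate 2 was high, IL17B replicates 1 and 2 were low, and IL17B replicate 3 lay among the controls. The log2 fold change was -0.35 (SE 0.17), and -0.14 without control replicate 2. The counts were not whole in 5 libraries because Ddit3 (chromosome 10, 127290793 to 127296291) overlaps the tRNA synthetase gene Mars (127296221 to 127311786), and reads were divided between genes. Whether the library kit kept the strand is not stated, so reads of such overlaps cannot be assigned by strand.

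Trib3, a pseudokinase that damps ATF4 and CHOP, was high in 1 library of each treatment. It had 52, 61 and 122 counts (2.63, 2.95 and 6.06 TPM) with IL17B, against 59, 123 and 75 counts (2.86, 6.13 and 3.71 TPM) in controls. IL17B replicate 3 and control replicate 2 were about level, so the mean difference was small beside the spread (log2 fold change -0.12, SE 0.34) and turned to 0.23 without control replicate 2. Chac1, which breaks down glutathione and is a late ATF4 target, is named after its values were seen. It had 6, 11 and 12 counts with IL17B, against 12, 21 and 9 counts in controls (0.40, 0.70 and 0.78 TPM with IL17B, against 0.76, 1.38 and 0.59 TPM in controls). It lay below 1 CPM on average, and the exact 95% Poisson intervals for 21 counts (13.0 to 32.1) and 12 counts (6.20 to 21.0) overlap. These intervals cover counting error only.

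Nupr1, a small stress-induced chromatin protein whose CARE is shown above, differed from Trib3. It had 165, 168 and 133 counts (28.5, 27.8 and 22.6 TPM) with IL17B, against 170, 202 and 157 counts (28.1, 34.4 and 26.5 TPM) in controls. Control replicate 2 was the high library and IL17B replicate 3 the low one (log2 fold change -0.18, SE 0.13, and -0.07 without control replicate 2). Ddit4 encodes REDD1, an inhibitor of mTORC1, and it ran the other way. It had 49, 49 and 28 counts (3.03, 2.90 and 1.70 TPM) with IL17B, against 23, 38 and 36 counts (1.36, 2.32 and 2.18 TPM) in controls. IL17B replicates 1 and 2 were the high libraries, IL17B replicate 3 lay within the controls, and the log2 fold change was 0.38 (SE 0.29) at these few counts, or 0.51 without control replicate 2.

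The remaining regulators were also near 0. Atf5 and Cebpg, both bZIP factors, Sesn2, an mTORC1 inhibitor that senses leucine, and Ppp1r15a (GADD34), which recruits the phosphatase of eIF2alpha, had log2 fold changes of -0.05, 0.03, 0.02 and -0.07. Their standard errors lay between 0.05 and 0.09. Without control replicate 2 the values were 0.03, 0.05, 0.04 and -0.03, so Atf5 changed sign. Atf5 was high in IL17B replicate 2 (47.2 TPM) and control replicate 2 (49.0 TPM) and lay between 39.4 and 42.9 TPM elsewhere.

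**Figure D5:**
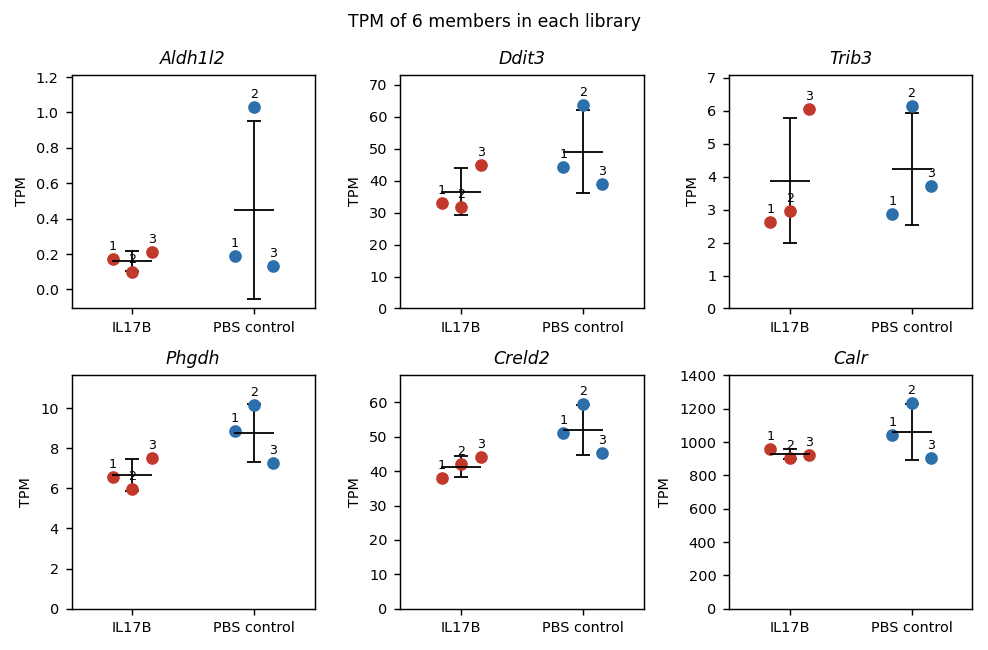
TPM of 6 members in each library, with IL17B (red) left of PBS control (blue), points numbered by replicate, and horizontal lines with bars for the mean and SD of 3 libraries. Control replicate 2 is the highest library in all 6 panels, with 1.03 TPM of Aldh1l2 against 0.10 to 0.21 TPM in the other 5 libraries. IL17B replicate 3 is nearly level with control replicate 2 for Trib3 only. Of the 36 members with a mean of at least 1 CPM, 27 are highest in control replicate 2 in TPM, and members highest elsewhere are not shown.

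Enzymes of amino acid and one-carbon synthesis were the role with the lowest median, -0.21, and -0.19 without control replicate 2. All 7 had a negative log2 fold change, and none was called. Asns, asparagine synthetase, had 204, 268 and 338 counts (11.01, 13.83 and 17.91 TPM) with IL17B, against 337, 314 and 291 counts (17.4, 16.7 and 15.3 TPM) in controls. IL17B replicate 1 was low, and IL17B replicate 3 was the highest of all 6. Its promoter carries the CARE shown above close to the start, and its log2 fold change was -0.21 (SE 0.15), and -0.22 without control replicate 2.

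Serine synthesis runs from a glycolysis intermediate through Phgdh, Psat1 and Psph. Phgdh, the first enzyme, had 118, 112 and 138 counts (6.56, 5.95 and 7.53 TPM) with IL17B, against 167, 185 and 134 counts (8.88, 10.1 and 7.28 TPM) in controls. Only IL17B replicate 3 and control replicate 3 overlapped. The log2 fold change was -0.40 (SE 0.14, adjusted p = 0.909 by edgeR), and -0.29 without control replicate 2. Psat1, the second step, had 241, 223 and 291 counts (11.4, 10.2 and 13.6 TPM) with IL17B, against 340, 255 and 280 counts (15.44, 11.99 and 13.06 TPM) in controls. Here control replicate 1 was the high library and control replicate 2 the lowest control, so leaving out control replicate 2 moved the log2 fold change from -0.21 (SE 0.13) to -0.30. Psph, the last step, was highest in control replicate 3 and lay between 6.56 and 8.41 TPM in all libraries.

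The mitochondrial one-carbon enzymes take the serine carbon onward. Shmt2, which splits serine into glycine and a folate-bound carbon, had 644, 640 and 693 counts (29.0, 27.5 and 30.6 TPM) with IL17B, against 710, 736 and 669 counts (30.5, 32.6 and 29.4 TPM) in controls. Its log2 fold change was -0.09 (SE 0.06), and -0.06 without control replicate 2. Mthfd2, the next enzyme, had 356, 331 and 451 counts (17.8, 15.9 and 22.2 TPM) with IL17B, against 455, 382 and 410 counts (21.8, 18.8 and 20.1 TPM) in controls. IL17B replicate 3 lay with the controls in both genes, and the log2 fold change of Mthfd2 was -0.13 (SE 0.11), or -0.19 without control replicate 2.

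Aldh1l2 oxidizes the mitochondrial formyl-folate at the end of this chain, and 1 library decided its value. It had 8, 6 and 12 counts (0.17, 0.10 and 0.21 TPM) with IL17B, against 11.98, 59 and 7 counts (0.19, 1.03 and 0.13 TPM) in controls. The exact 95% Poisson interval of the 59 counts was 44.9 to 76.1, and the next highest count, 12, had 6.20 to 21.0. With 0.5 CPM added to each value, Aldh1l2 ranked 1 of 13866 genes by the ratio of control replicate 2 to the highest other library, at 3.10. The members were chosen with these levels known, so the rank is a description and not a test. The log2 fold change was -1.56 (SE 0.73, adjusted p = 0.953 by edgeR). Without control replicate 2 it was -0.13, and the 5 remaining libraries overlapped.

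The 8 aminoacyl-tRNA synthetases, which load amino acids onto their tRNAs, were even in level, with a highest library at most 1.2 times the lowest. Their median log2 fold change was -0.09, and -0.06 without control replicate 2. Nars, for asparagine, was the most abundant per length, with 3484, 3383 and 3513 counts (136, 126 and 135 TPM) with IL17B, against 3464, 3722 and 3395 counts (129, 143 and 129 TPM) in controls. Its groups overlapped fully apart from control replicate 2 (log2 fold change -0.02, SE 0.05), and the sign turned to 0.01 without control replicate 2. Aars, for alanine, had 1857, 1829 and 2050 counts (55.9, 53.0 and 60.9 TPM) with IL17B, against 2037, 2167 and 2010 counts (58.4, 64.3 and 59.4 TPM) in controls. IL17B replicates 1 and 2 were the low libraries and IL17B replicate 3 lay within the controls (log2 fold change -0.11, SE 0.05, and -0.08 without control replicate 2).

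Mars, for methionine, had 702.84, 695.42 and 756.36 counts (24.5, 23.1 and 25.8 TPM) with IL17B, against 771, 782.4 and 775.29 counts (25.7, 26.8 and 26.3 TPM) in controls. The groups did not overlap in CPM but did in TPM, the log2 fold change was -0.11 (SE 0.05) or -0.10 without control replicate 2, and Mars shares reads with Ddit3 as stated above. Of the other 5, Sars, for serine, had 0.03, and Gars, Wars, Eprs and Tars, for glycine, tryptophan, glutamate with proline, and threonine, had -0.09, -0.09, -0.04 and -0.14. Without control replicate 2 Sars had 0.08, Gars -0.08, Wars -0.04, Tars -0.12, and Eprs changed sign to 0.01. In all 8 genes IL17B replicate 3 lay above the mean of the other IL17B libraries, and control replicate 2 lay above the mean of the other controls.

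The 12 UPR genes of the ER were the role in which control replicate 2 stood out by the most. Its median fold over the mean of the other 5 libraries was 1.22, against 1.09 for regulators, 1.08 for synthetases, 1.07 for synthesis enzymes and 0.999 for all genes. The IL17B sums lay close together (2010 ± 43.2 TPM with IL17B and 2225 ± 309 TPM in controls, SD, n = 3 each), and control replicate 3 was the lowest library for 5 of the 12. The median log2 fold change was -0.11, and -0.01 without control replicate 2. Calr, calreticulin, a lectin chaperone that binds calcium, was the most abundant member of all per length. It had 17926, 17662 and 17624 counts (959, 903 and 926 TPM) with IL17B, against 20389, 23471 and 17333 counts (1043, 1236 and 906 TPM) in controls. The mean was 929 ± 27.9 TPM with IL17B and 1062 ± 166 TPM in controls (SD, n = 3 each), and the low control lay within the IL17B values. The log2 fold change was -0.20 (SE 0.09), and -0.09 without control replicate 2. Pdia3 encodes ERp57, the disulfide isomerase that works with calreticulin. It had 9668, 9573 and 9701 counts (378, 358 and 373 TPM) with IL17B, against 10532, 12107 and 9233 counts (394, 466 and 353 TPM) in controls. The order of the libraries was alike in both genes, with control replicate 2 highest, then control replicate 1, and control replicate 3 lowest in CPM. The log2 fold change of Pdia3 was -0.13 (SE 0.08), and -0.03 without control replicate 2.

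Creld2, an ER-resident disulfide isomerase and a strongly UPR-induced gene, had the smallest adjusted p of the members. It had 493, 573 and 583 counts (37.9, 42.1 and 44.0 TPM) with IL17B, against 695, 788 and 602 counts (51.0, 59.6 and 45.2 TPM) in controls. All 3 IL17B libraries lay below all 3 controls, with IL17B replicate 3 and control replicate 3 close to each other. The log2 fold change was -0.33 (SE 0.10, adjusted p = 0.862 by edgeR), and -0.24 without control replicate 2. Calr and Creld2 are the members whose windows hold the ERSE printed above.

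Of the other UPR genes, all but Atf6 were highest in control replicate 2. Pdia4, another disulfide isomerase, reached 90.0 TPM in control replicate 2 and lay between 58.7 and 70.7 TPM in the other libraries. Sdf2l1, a partner of BiP, reached 117 TPM there and lay between 86.8 and 93.6 TPM elsewhere. Manf, a secreted ER factor, reached 70.8 TPM and lay between 50.4 and 61.2 TPM elsewhere. Herpud1, Edem1 and Sel1l, of ER-associated degradation, reached 55.5, 121 and 97.5 TPM, the highest value of each. Ern1 (IRE1) was 40.6 TPM in control replicate 2 and 31.11 to 36.03 TPM elsewhere, and Xbp1, its substrate, was 159 TPM there and 140 to 147 TPM elsewhere. Gene-level counts do not separate spliced from unspliced Xbp1. Atf6, the third sensor, was the exception, with 48.1, 43.3 and 47.9 TPM with IL17B, against 43.7, 46.0 and 43.1 TPM in controls. It was the only UPR member with a positive log2 fold change, 0.06 (SE 0.05), and 0.08 without control replicate 2, where Xbp1 (0.02), Ern1 (0.06) and Herpud1 (0.05) were positive too.

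Further genes of the pathway were taken from lists that were not picked for how they moved, though they were drawn up with earlier results known. None was called in either direction: 0 of 13 genes for eIF2alpha kinases, phosphatases and eIF2B, 0 of 18 other ATF4 targets (Fgf21 and Stc2 were under the count minimum), 0 of 9 folate enzymes, 0 of 12 other cytosolic synthetases and 0 of 24 other ER chaperones and degradation genes. At an unadjusted p under 0.05 by edgeR these lists held 0, 2, 1, 1 and 0 genes, where 726 of all 13866 genes passed. The genes were Cbs (higher with IL17B) and Aldh18a1 (lower), Aldh1l1 (higher) and Qars (higher). The other ER genes were high in control replicate 2 as the members were. Of the 24, 18 had their highest level there, against 19.5% of all genes. Their median fold over the other 5 libraries was 1.11, against 0.999 for all genes. Hspa5 (BiP), the main ER chaperone and the regulator of the UPR sensors, had 445, 436 and 486 TPM with IL17B, against 492, 691 and 445 TPM in controls. Hsp90b1 (GRP94) had 366, 342 and 370 TPM with IL17B, against 384, 504 and 335 TPM in controls. Both were high in 1 control and overlapped otherwise, with log2 fold changes of -0.25 (SE 0.13) and -0.18 (SE 0.11), or -0.06 and -0.02 without control replicate 2. Syvn1, the ubiquitin ligase of ER-associated degradation, and Mbtps1, the protease that cuts ATF6, lay lower with IL17B without overlap in CPM, at -0.11 (SE 0.05) and -0.07 (SE 0.04), but overlapped in TPM. Derl3, a degradation factor named after its values were seen, ranked 3 of 13866 by the measure used for Aldh1l2, with 2.51, 3.16 and 2.71 TPM with IL17B, against 3.58, 9.36 and 2.43 TPM in controls.

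The other ATF4 targets had a median fold of 1.16 in control replicate 2 over the other 5 libraries. Of the 13 with a mean of at least 1 CPM, 7 were highest there, against 19.5% of all genes with such a mean. Slc3a2, the heavy chain of amino acid exchangers, had 324, 354 and 357 TPM with IL17B, against 349, 405 and 361 TPM in controls (log2 fold change -0.12, SE 0.07). Slc38a2, a neutral amino acid transporter, had 60.9, 54.2 and 61.7 TPM with IL17B, against 56.7, 61.3 and 60.8 TPM in controls (-0.02, SE 0.05). Aldh18a1, of proline synthesis, was lower with IL17B without overlap, with 6.61, 5.76 and 6.83 TPM, against 7.43, 8.6 and 6.91 TPM in controls (-0.26, SE 0.10). Slc7a3, an arginine transporter, was also lower without overlap, at 4 to 6.14 counts with IL17B and 7 to 13 counts in controls. Gdf15, a stress cytokine named after its values were seen, had 6.81, 9.03 and 7.55 TPM with IL17B, against 7.54, 17.3 and 8.75 TPM in controls. The largest positive values of this list were Cbs and Cth, of transsulfuration, named after their values were seen. Cbs had 0, 18 and 5 counts with IL17B, against 0, 1 and 0 counts in controls, and Cth had 0, 11 and 6 counts with IL17B, against 1, 1 and 1 counts in controls. Both were highest in IL17B replicates 2 and 3, the libraries with 196 and 68.9 CPM of hepatocyte markers, and the part of those cells in these counts was not tested.

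For genes upstream of ATF4, the other synthetases and the folate enzymes, the median fold in control replicate 2 was closer to 1. The eIF2 list had a median fold of 1.02 in that library, though 5 of its 13 genes were highest there, against 19.5% of all genes. Eif2s3x, a subunit of eIF2, had 112, 113 and 126 TPM with IL17B, against 118, 120 and 121 TPM in controls, and Eif2ak1, the heme-sensing kinase, had 72.2, 70.6 and 69.6 TPM with IL17B, against 65.7, 73.5 and 69.2 TPM in controls. The other synthetases had a median fold of 1.04 there and 1 of 12 was highest there, again against 19.5% of all genes. Qars, for glutamine, was higher with IL17B without overlap, with 102, 97.7 and 102 TPM, against 92.5, 96.0 and 91.9 TPM in controls (log2 fold change 0.10, SE 0.04). Dars, for aspartate, had 72.3, 66.2 and 71.3 TPM with IL17B, against 71.9, 74.6 and 69.2 TPM in controls, and overlapped. The folate enzymes had a median fold of 0.971 there. Gcsh, of the glycine cleavage system, overlapped between treatments, with a log2 fold change of 0.07 (SE 0.06). In that list Aldh1l1, the cytosolic counterpart of Aldh1l2, was higher with IL17B without overlap, with 10.8, 10.5 and 10.7 TPM, against 8.80, 9.97 and 9.02 TPM in controls (0.20, SE 0.07). Shmt1, the cytosolic counterpart of Shmt2, and Mthfd1 were lower with IL17B without overlap in CPM, at -0.32 (SE 0.18) and -0.08 (SE 0.06).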

How the data were processed

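BMDM RNA was poly(A)-selected and read as single-end reads. According to the submitters' processing notes and the paper's methods, the authors aligned reads to GRCm38.p6 with HISAT2 2.0.4 and to its coding genes with Bowtie2 2.2.5, and estimated gene expression with RSEM 1.2.12. The deposited table holds estimated counts, FPKM and TPM for each library, all made by the authors. FPKM values were not used, and TPM values were used as deposited. RSEM divides reads that match several genes, so some counts are not whole.

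Estimated counts were rounded, and genes with a total of at least 15 were kept. IL17B was compared with PBS control in R 4.3.3 by edgeR 4.0.16 (quasi-likelihood test, TMM, Benjamini-Hochberg adjusted p of at most 0.05 over all genes). CPM values use the TMM-scaled library size. Alternatives used DESeq2 1.42.0 (Wald test or size factors), library totals, other filters, limma 3.58.1 on log2 of deposited TPM plus 0.1 or 1, each library left out, and a replicate block. The steps were tested on simulated counts.

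Members, roles, lists and rules were chosen with earlier results of these data known. Counts and TPM are given in full for members that did not overlap between treatments and for the 2 most abundant of each role. They are also given for the 8 widest in range among those with a mean of at least 1 CPM, and for Aldh1l2. The study lists Aldh1l2 as differentially expressed, by DESeq2 1.4.5 at a Q of at most 0.05. No fit here called it. The DESeq2 1.42.0 Wald test here called 6 genes over the whole table, fewer than the study lists, so the difference is not limited to Aldh1l2. Of each other list, up to 2 of the most abundant genes and those without overlap were named. 1 gene that this rule names is not reported here. Sequences and coordinates are from RefSeq, GRCm38.p6.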

Additional observations from a re-analysis of the deposited data

How the results depend on the processing

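The number of members called was 0 under each alternative run. Over the whole table, where the edgeR test called 0 genes, the DESeq2 Wald test called 6, limma on log2 of TPM plus 0.1 called 1, and leaving out single libraries gave 0 to 86, the 86 (77 higher and 9 lower with IL17B) without IL17B replicate 1. With the replicate block 77 genes were called (75 higher, 2 lower), and 0 members. The sources used here do not say if the replicate numbers pair the libraries. Same-numbered libraries had correlations of their deviations from the treatment means of -0.14, 0.01 and -0.13 over 8680 genes. Libraries of unlike number had -0.10 to 0.23. With 3 libraries per treatment these correlations cannot decide if the libraries were paired.

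The median log2 fold change of the members stayed below 0 in each alternative, between -0.13 and -0.05 with single libraries left out. Of 532 fold changes of single members under the alternatives, 530 moved by less than the replicate spread, the SD of log2 CPM within treatments. Both exceptions were Aldh1l2, at -0.27 with limma on log2 of TPM plus 1, and -0.13 without control replicate 2. That spread was taken over all 6 libraries, so it already holds the library left out. Leaving out a single library could hardly move a value beyond it, and the count of 530 is no measure of stability. Atf5, Trib3, Sesn2, Nars, Sars, Eprs, Xbp1, Ern1 and Herpud1 changed sign under some alternative, and the other 29 kept theirs. With members of at least 10 CPM, 71.0% were highest in control replicate 2. Chac1 and Ddit4 had few counts, with exact Poisson intervals that overlapped between most libraries, while Aldh1l2 and Trib3 differed between libraries by more than counting error. The cause of the high values in control replicate 2 was not tested.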
